A study of Drosophila melanogaster with 3 samples.

Results

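The genes described here encode subunits of Mediator, TBP-associated factors (TAFs), transcription factors of the TfII series and subunits of RNA polymerase II. They were chosen by symbol, as protein-coding genes whose names in the dm6 gene models begin with MED, Taf, TfII, Polr2 or RpII. This gave 60 of 13945 protein-coding genes: 25 Mediator genes, 14 TAF genes, 8 TfII genes and 13 RNA polymerase II genes. Mediator subunits under other symbols, kto, skd, CycC, Cdk8 and ix, were outside the rule. A further 6 paralogs known for expression in the testis were kept apart. The assay was chromatin immunoprecipitation with sequencing of E(bx). The material was whole Drosophila melanogaster embryos aged 0 to 16 h, male and female together, of a transgenic line with green fluorescent protein (GFP) fused to the C terminus of E(bx). All 3 biological replicates belonged to this 1 group, each from its own biosample, so nothing was compared between conditions. The description names an antibody against GFP, while the antibody field reads E(bx). A whole embryo mixes many cell types and stages, so the fraction of cells with E(bx) at a promoter cannot be told apart from its occupancy per cell.

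NURF is a remodelling complex that slides nucleosomes with the ATPase Iswi, and E(bx), or NURF301, is its largest component. RNA polymerase II starts transcription together with general factors: TFIID, made of the TATA-binding protein and the TAFs, recognises the promoter, TFIIA and TFIIB stabilise it there, TFIIF brings the polymerase, and TFIIE helps TFIIH to open the DNA. Mediator is a large complex with head, middle and tail modules that passes signals from bound activators to the polymerase; the module of each subunit is known from yeast and human structures. In fly spermatocytes a set of TAF paralogs takes the place of some of the general TAFs.

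The start site windows printed here are of genes at both ends of the range of peak signals, with the stretch between a divergent pair of TAF genes and with 2 testis paralogs that had no peak. Each reads 5′ to 3′ on the gene's strand, from the Release 6 (dm6) genome of RefSeq, and runs from up to 150 bases before the annotated start site to 29 bases after it; where the annotated span of a neighbouring gene, at either of its ends, lies closer, the window begins at its edge. The stretch between Taf10b and Taf10 is given on the plus strand. Capitals mark matches, at any position and on either strand, to 5 short motifs. These are TATCGATA, the DNA replication-related element or DRE, and GGTCACAC, the core of motif 1 of housekeeping promoters. The E-box was searched as CAGCTG. The repeat that is bound by the factor Trl was searched as GAGAGAG. For the box bound by the TATA-binding protein the letters were TATAAA. No match in these windows overlaps another. MED21 had the strongest peak of the 60 genes, and Taf1, TfIIA-S and TfIIEalpha were among the 100 strongest peaks of the whole set; MED28, Taf8 and Polr2L were among the weakest of the 60.
MED21 (chr3L:25115917-25116096, minus strand): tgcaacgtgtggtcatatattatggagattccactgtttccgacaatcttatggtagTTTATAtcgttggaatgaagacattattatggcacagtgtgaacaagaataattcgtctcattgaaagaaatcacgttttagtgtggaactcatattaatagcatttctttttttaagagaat
MED28 (chr3R:25476916-25477032, plus strand): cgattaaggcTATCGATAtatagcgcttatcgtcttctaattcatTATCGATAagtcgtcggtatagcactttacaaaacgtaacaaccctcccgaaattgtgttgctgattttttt
Taf1 (chr3R:6646739-6646918, plus strand): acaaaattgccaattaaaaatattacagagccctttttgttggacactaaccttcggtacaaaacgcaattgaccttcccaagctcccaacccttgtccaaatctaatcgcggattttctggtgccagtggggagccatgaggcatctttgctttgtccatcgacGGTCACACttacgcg
Taf8 (chrX:18101820-18101999, plus strand): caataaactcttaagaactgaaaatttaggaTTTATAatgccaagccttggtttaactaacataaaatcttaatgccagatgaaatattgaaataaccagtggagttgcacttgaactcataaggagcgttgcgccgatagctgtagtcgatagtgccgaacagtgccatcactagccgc
TfIIA-S (chr3R:23891031-23891210, minus strand): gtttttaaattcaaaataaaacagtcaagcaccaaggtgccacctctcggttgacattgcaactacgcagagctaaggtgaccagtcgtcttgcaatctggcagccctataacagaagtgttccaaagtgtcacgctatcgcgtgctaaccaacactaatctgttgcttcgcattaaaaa
TfIIEalpha (chr3L:11681888-11682067, plus strand): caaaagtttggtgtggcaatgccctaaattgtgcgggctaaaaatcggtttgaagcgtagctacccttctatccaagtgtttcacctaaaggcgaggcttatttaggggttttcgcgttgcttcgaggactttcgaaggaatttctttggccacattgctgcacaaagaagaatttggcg
Polr2L (chr3R:24717431-24717540, plus strand): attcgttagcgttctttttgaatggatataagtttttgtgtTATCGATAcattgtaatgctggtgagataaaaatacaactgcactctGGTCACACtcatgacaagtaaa
Between Taf10b and Taf10 (chr2L:2767846-2767889, plus strand): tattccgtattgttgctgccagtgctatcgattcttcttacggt
can (chr3L:10267082-10267261, minus strand): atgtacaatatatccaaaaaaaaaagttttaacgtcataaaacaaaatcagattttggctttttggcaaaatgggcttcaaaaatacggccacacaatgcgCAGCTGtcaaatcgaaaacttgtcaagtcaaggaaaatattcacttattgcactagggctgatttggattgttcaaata
TfIIA-S-2 (chrX:1011614-1011793, minus strand): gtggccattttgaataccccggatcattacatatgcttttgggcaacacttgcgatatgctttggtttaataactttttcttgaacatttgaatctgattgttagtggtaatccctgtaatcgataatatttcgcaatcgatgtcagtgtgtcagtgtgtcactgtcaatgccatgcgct
In these windows MED28 holds the DRE letters at 77 and 42 bases before its start site, and Polr2L holds them 39 bases before. The motif 1 core lies 15 bases after the start site of Taf1 and 8 bases after that of Polr2L. TfIIA-S, TfIIEalpha and TfIIA-S-2 hold none of the 5. In the same window at the most upstream start site of each gene, without trimming, the DRE letters were present in 15.0% of the 60 genes and 8.06% of all protein-coding genes. The motif 1 core was present in 26.7% and 6.30%, CAGCTG in 6.67% and 12.9%, and TATAAA in 36.7% and 31.0%. GAGAGAG was in 0 of the 60 and in 4.28% of all protein-coding genes. A match is a run of letters, and no factor was measured at it.

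Every gene of the 4 groups had an E(bx) peak at its promoter. A promoter peak is a peak of the authors' reproducible set (9708 peaks, those that pass IDR, a check of rank agreement between replicates) with its summit within 500 bp of an annotated start site of the gene. All 60 genes had at least 1, against 50.3% of all protein-coding genes (7018 of 13945). The 60 genes shared 59 distinct peaks, because Taf10 and Taf10b are divergent genes with start sites 45 bp apart and the same counted summit, 5 bp downstream of the start site of Taf10b and 50 bp upstream of that of Taf10. Of the 6 testis paralogs, 1 had a promoter peak.

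**Figure D1:**
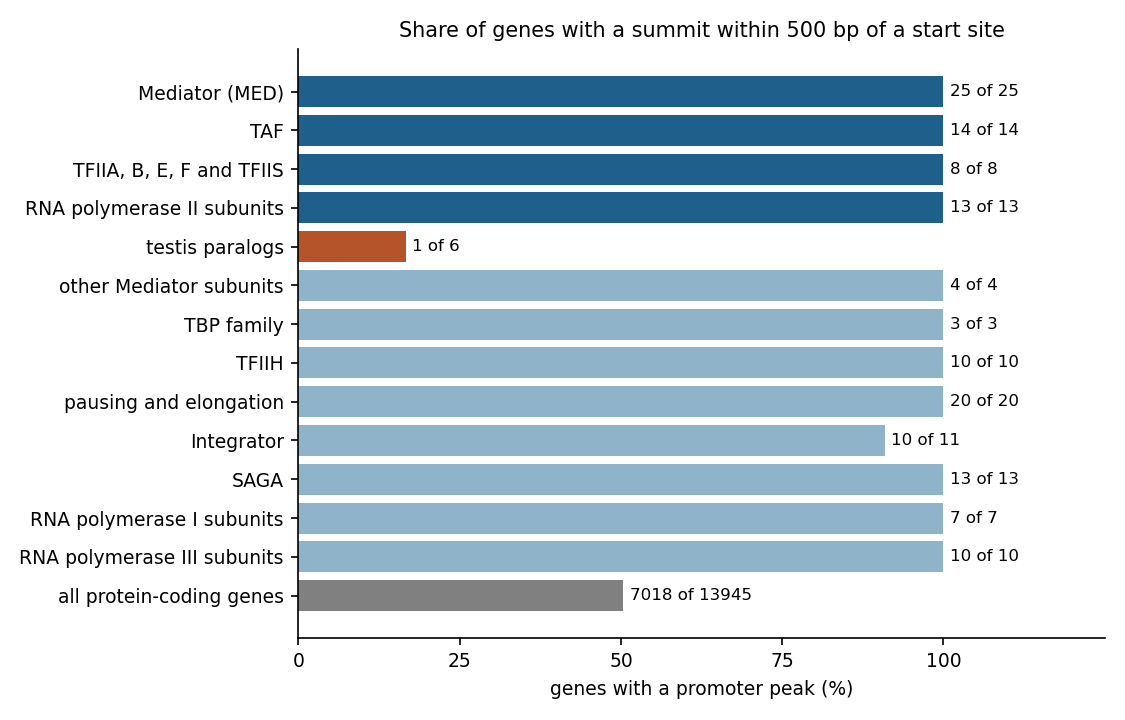
Horizontal bars give the percentage of genes with a summit of the reproducible set within 500 bp of a start site, with the number of genes beside each bar. The 4 groups, from Mediator to the RNA polymerase II subunits, reach 100%, the testis paralogs 1 of 6, the related lists 10 of 11 or all of their genes, and all protein-coding genes 7018 of 13945.

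A window of 500 bp can credit a gene with a neighbour's peak, since many fly promoters face each other. Among genes with no other gene's start site within 1000 bp of their own, 16 of 16 of the group had a promoter peak, against 31.7% of all such protein-coding genes. These 16 were MED11, MED14, MED21, MED24, MED26, Taf1, Taf9, TfIIA-S, TfIIEalpha, TfIIEbeta, TfIIFbeta, Polr2E, Polr2F, Polr2G, Polr2K and Polr2L. When a summit counted only for the gene of its nearest start site, 50 of 60 genes had a promoter peak, against 41.2% of all protein-coding genes. Among the 4854 strongest peaks of the set, 56 of 60 genes had one, against 37.8% of all protein-coding genes. The 4 genes without a peak among these were MED18, MED28, Polr2L and Taf8.

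The strength of a peak is given as its signal value, a score written by the authors' peak caller on a scale that is not stated; larger is stronger, and values are compared only within a list. For each gene the strongest promoter peak was counted. The median was 1047 over the 60 genes (quartiles 723 and 1395, range 334 to 3161), against 834 over all protein-coding genes with a promoter peak (quartiles 521 and 1214). Of the 60, 41 lay above the median of all protein-coding genes, 24 above their upper quartile and 4 below their lower quartile. The median rank in the reproducible set was 1924 for the 60 genes and 2859 for all protein-coding genes, rank 1 being the strongest peak. No test was made of these differences, since the genes were chosen with earlier results of these data known.

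**Figure D2:**
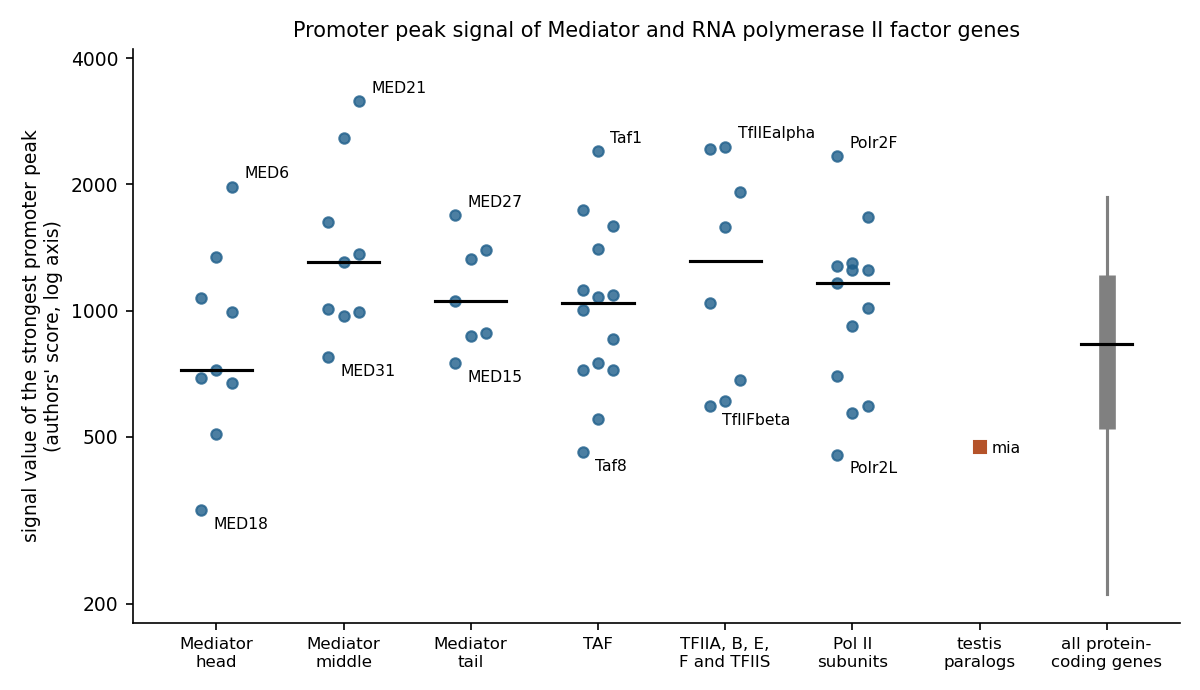
Each point is a gene's strongest promoter peak in the reproducible set, on a log axis of the authors' signal value, by role; black bars are medians. The grey bar at the right spans the quartiles of all protein-coding genes with a promoter peak and the line their 5th to 95th percentiles. The points range from MED18 at 334 to MED21 at 3161, and mia is the testis paralog with a peak.

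The Mediator genes spanned the whole range of the group, with a median signal of 1011 over 25 genes. The 9 head genes had a median of 720, the 9 middle genes 1306 and the 7 tail genes 1053. The ranges of the 3 modules overlapped, and all 3 overlapped those of the other groups.

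In the head, which contacts the polymerase, MED6 had a signal of 1976 in the reproducible set, and 624, 803 and 538 in the lists of replicates 1, 2 and 3. MED30, a head subunit known from animals but not from budding yeast, had 1340, with 305, 409 and 625 in the libraries. At the other end, MED28 had 509 (144, 137 and 235 in the libraries) and MED18, part of the movable jaw of the head in yeast, had 334 (73.5, 112 and 151). MED6 lay above both weak genes in every library. The strongest and weakest genes of each role were picked by the signal of the set made from these libraries. Their order within the libraries is therefore no independent evidence, here and below. MED18 was the weakest of the 60 genes in replicates 1 and 2, and its summit lay 37 bp from its own start site and equally far from that of Gcna.

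The middle module, which links the head to the tail, held both of the strongest Mediator peaks. MED21 had 3161, rank 16 of the whole set, with 1365, 1394 and 386 in the libraries. MED10, another subunit of the middle, had 2574, rank 56, with 891, 1035 and 625 in the libraries. The weakest of the middle genes were MED19 at 970 (337, 370 and 316) and MED31 at 774 (217, 285 and 230). All 9 middle genes had a peak among the 4854 strongest. MED21 was higher than every other gene of the 60 in replicates 1 and 2 and not in replicate 3.

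The tail carries contacts with activators. MED27 had 1687 (574, 554 and 549 in the libraries) and MED23, a target of activators in mammals, had 1393 (381, 515 and 465). MED24 had 870 (267, 266 and 338) and MED15, the activator target best known from yeast, had 749 (199, 213 and 338). Both strong tail genes exceeded both weak ones in every library, an order that their choice by signal largely set. MED14, the backbone that joins the modules, had 883 (266, 281 and 356).

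TAF genes had a median signal of 1040 over 14 genes. Taf1, the largest subunit and scaffold of TFIID, had 2404, rank 80, with 789, 1013 and 637 in the libraries. Taf7, which binds Taf1, had 1737 (571, 654 and 490). The weakest were Taf3, whose mammalian counterpart reads trimethylated lysine on histone H3, at 550 (140, 226 and 202), and Taf8, the histone-fold partner of Taf10, at 459 (145, 183 and 114). Taf1 and Taf7 exceeded Taf3 and Taf8 in every library, an order that their choice by signal largely set. Taf8 was the weakest of the 60 in replicate 3. Of known histone-fold partners, Taf6 had 1401 and Taf9 853, while Taf4 had 1086 and Taf12 1594. Taf11 and Taf13, another histone-fold pair, had 1005 and 1076.

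The TfII genes had a median of 1310 over 8 genes, with a range from 593 to 2458. TfIIEalpha, the large subunit of TFIIE, had 2458, rank 69, with 792, 992 and 675 in the libraries. TfIIA-S, the small subunit of TFIIA, had 2428, rank 76, with 794, 902 and 783; it was the strongest of the 60 genes in replicate 3. The partner subunits were lower in the reproducible set, TfIIEbeta at 685 and TfIIA-L at 1580. The 2 TFIIF genes were the lowest of the 8, TfIIFalpha with 607 (157, 170 and 277) and TfIIFbeta with 593 (119, 192 and 282). Both lay above the lower quartile of all protein-coding genes with a promoter peak, 521. The summit counted for TfIIFalpha lay 170 bp from its own start site and 31 bp from that of CG1024. A weaker peak of TfIIFalpha, 30 bp downstream of its own start site, had 311. Of the factors without a paired subunit, TfIIS, which rescues arrested polymerase, had 1921 (624, 696 and 590) and TfIIB had 1041 (288, 366 and 350).

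The RNA polymerase II genes had a median of 1166 over 13 genes. The strongest was Polr2F, a small subunit shared by the polymerases I, II and III, with 2336, rank 93, and 776, 925 and 652 in the libraries. Polr2H, another shared subunit, had 1670 (544, 610 and 563). The weakest were Polr2I with 571 (194, 199 and 203) and the shared subunit Polr2L with 453 (80.8, 151 and 226). Shared subunits therefore stood at both ends of the group. Polr2A and Polr2B, which together form the catalytic centre, had 1253 (371, 476 and 384) and 1013 (279, 360 and 385).

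The summits lay just upstream of the start sites. Over the 60 genes, the median summit position from the gene's own nearest start site was 42 bp upstream (-42, quartiles -83 and -23.75), against 61 bp upstream over all protein-coding genes with a promoter peak (-61, quartiles -168 and -25). It was upstream in 54 of the 60 genes and downstream in 6, and within 100 bp in 48. In the 22 genes with no other gene's start site in the window the median was -25.5 bp, and in the 38 genes that shared the window it was -53.5 bp.

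**Figure D3:**
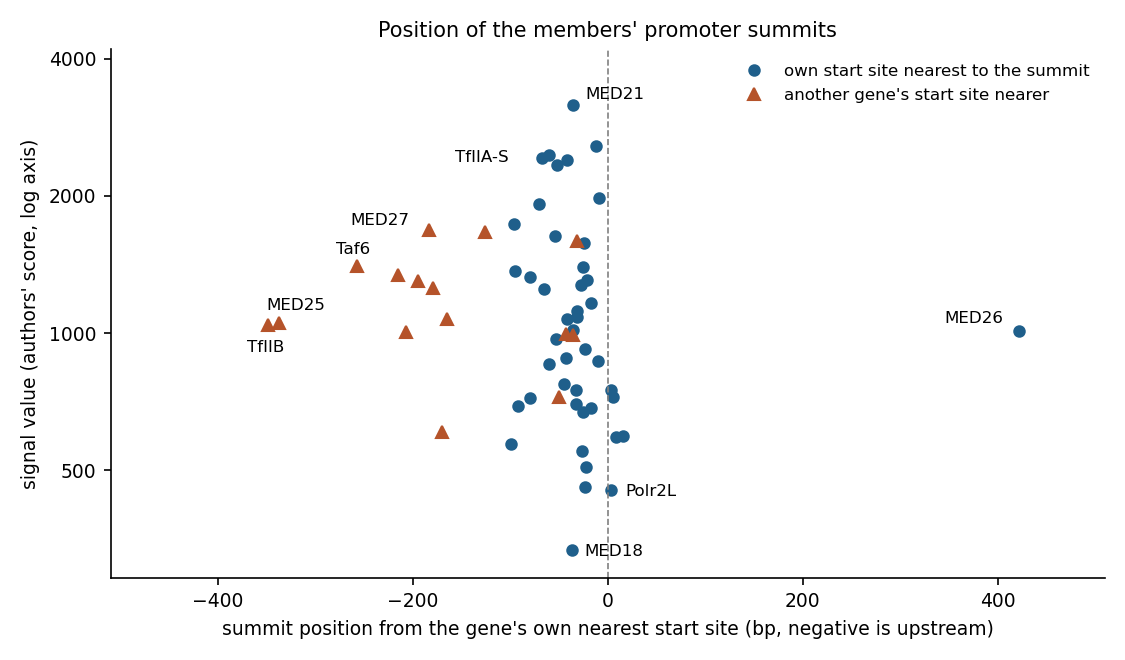
Each point is 1 of the 60 genes, with the position of its counted summit from its own nearest start site (bp, negative upstream) against the authors' signal value on a log axis. Circles are the 45 genes whose own start site is the nearest one, triangles the 15 with another gene's start site nearer; all 15 lie upstream, and MED26 stands alone at 422 bp downstream.

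In 45 genes the gene's own start site was the nearest to the counted summit, and in 15 another gene's was nearer. The 15 had a median signal of 1076 and the 45 a median of 1011. The summit counted for MED27 lay 183 bp from MED27 and 95 bp from elm. That of Polr2H lay at the annotated start site of CG11247 and 126 bp from Polr2H. That of Taf12 lay 32 bp from Taf12 and 21 bp from Ho. For Taf6 it lay 257 bp from Taf6 and 76 bp from ash1, a trithorax group gene. These genes' values describe a shared region, and which gene they belong to cannot be told from the peak lists.

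Taf6 also had a second peak of 1147 at 56 bp upstream of its own start site. Likewise TfIIB, whose strongest summit lay 349 bp away and next to Bug22, had a weaker peak of 589 at 147 bp upstream. MED25 had 1053 at 337 bp upstream, next to Hs6st, and 973 at 61 bp upstream. The peak at 337 bp had 234, 285 and 441 in replicates 1, 2 and 3, and that at 61 bp had 235, 291 and 388. The farther peak was thus ahead in replicate 3 only. Polr2C and TfIIFalpha also had a weaker peak nearest to their own start site. The other 10 genes with a nearer neighbour had no such second peak: MED9, MED20, MED27, MED30, Polr2A, Polr2H, Taf10, Taf11, Taf12 and Taf13.

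Of the neighbours, 3 are named here after their values had been seen. MED20 shared its summit with Trf, which encodes a relative of the TATA-binding protein, at 36 and 11 bp. Polr2D and Ada2a, which encodes an adaptor of histone acetyltransferase complexes, shared a start region with the summit 17 bp from both. Polr2I shared its window with su(Hw), an insulator protein gene, with the summit 99 bp from Polr2I.

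Of the 60 genes, 17 (28.3%) had 2 or more promoter peaks, against 32.9% of all protein-coding genes with a promoter peak. No summit of the reproducible set lay in the body of any of the 60 outside start site windows, while 704 of the 7018 protein-coding genes with a promoter peak had one. The genes were also shorter, with a median length of 1308.5 bp against 2839.5 bp, and the part of length in this difference was not tested.

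Of the 60 genes, 6 have several annotated start sites. MED6 has 5 start sites, and its summit lay 9 bp upstream of the most downstream one and 286 to 1160 bp downstream of the other 4. MED21 has 2, and its summit lay 36 and 144 bp upstream of them. At Taf7 it lay 96 bp upstream of the downstream one of 2 and 209 bp downstream of the other. At Taf4 it lay 32 bp upstream of the middle one of 3. At TfIIA-L it lay 24 bp upstream of 1 start site and 2294 bp from the other. MED26, on chromosome 4, had 3 promoter peaks. The strongest, with 1011, lay 422 bp downstream of the upstream start site and 942 bp upstream of the other. Another, with 714, lay 51 bp upstream of the downstream start site. The peak of 1011 had 394, 435 and 150 in replicates 1, 2 and 3, and that of 714 had 287, 335 and 176. Their order was thus reversed in replicate 3.

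All 60 genes had a matching summit within 200 bp in each library's own list (30000, 28972 and 30000 peaks), and among each library's best 9708 peaks. Of the 59 distinct summits, 59 were in the best peaks of all 3 libraries, against 83.1% of all promoter peaks. The 59 are the strongest peaks of their genes, while the 83.1% also covers weaker peaks and those of non-coding genes. The reproducible set was made from these lists, so the match is no independent evidence. The median signal of the 60 genes was 306, 368 and 375 in replicates 1, 2 and 3, against 229, 281 and 328 for all protein-coding genes. Their median rank was 1834, 1922 and 2096.5, against 2896.5, 2910.5 and 2734.5. The rank of the group was thus ahead of that of all protein-coding genes in each library. The median shift of the summit from that of the reproducible set was 6.5, 6 and 7 bp.

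**Figure D4:**
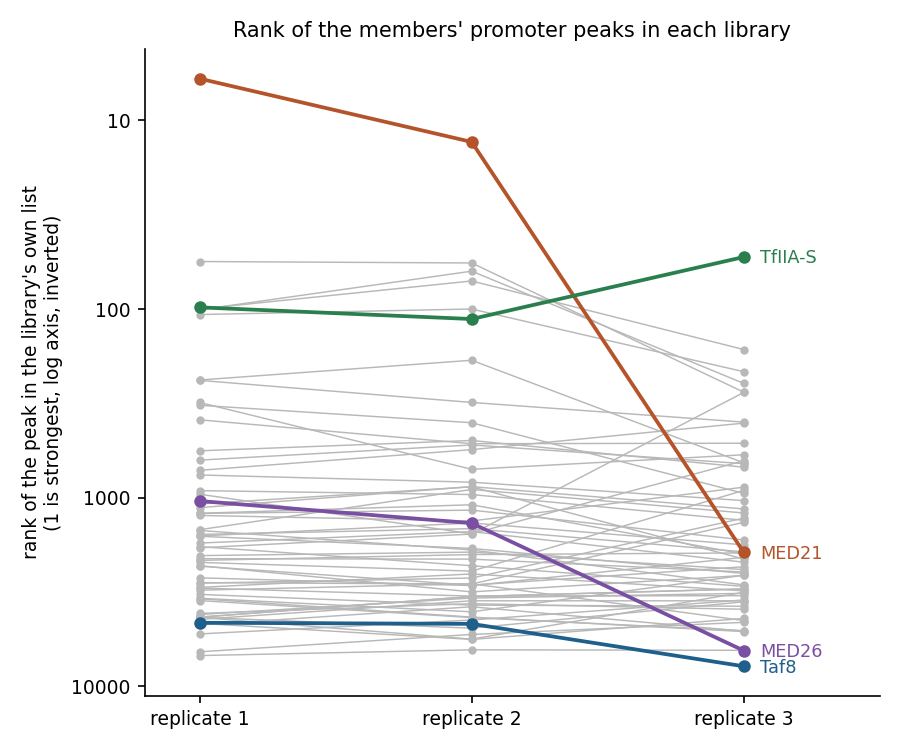
Each line joins the ranks of 1 gene's promoter peak in the own lists of replicates 1, 2 and 3, on an inverted log axis (1 is the strongest). MED21 has ranks 6, 13 and 1951, MED26 has 1043, 1367 and 6481, TfIIA-S has 98, 113 and 53, and Taf8 has 4614, 4676 and 7850.

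A few genes ranked differently in replicate 3. MED21 ranked 6 and 13 in replicates 1 and 2 and 1951 in replicate 3. MED26 had signals of 394, 435 and 150 and ranks of 1043, 1367 and 6481. In 8 genes (13.3%) the rank in replicate 3 was over 2 times the geometric mean of the other 2 ranks. The share was 8.42% over promoter peaks of any gene, strongest or not, with a match in all lists. Besides MED21 and MED26 the 8 genes were MED1, MED6, MED10, Taf1, Taf7 and Polr2F. In 4 genes, MED9, MED25, MED30 and Taf13, it was under 0.5 of that mean. These were 6.67% of the 60, against 11.7% of promoter peaks. The counted summits of all 4 lay nearer to another gene's start site, so their ranks describe a shared region. MED30 ranked 1847, 1562 and 277. Taf3, also on chromosome 4, had ranks of 4741, 3795 and 5112. With replicate 3 left out, MED21 is still a promoter peak of both other libraries, as are the other 59 genes.

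Motif letters were counted around the summits as well, in windows of 201 bp centred on them, on both strands. The 59 windows are at the strongest promoter peak of each gene. The 7196 promoter peaks beside them are all those of any gene, including weaker peaks and those of non-coding genes. The motif 1 core was in 14 of the 59 windows (23.7%), against 11.6% of all 7196 promoter peaks, and TATAAA was in 25 (42.4%), against 27.2%. The DRE letters were in 9 (15.3%), against 12.2%, CAGCTG in 7 (11.9%), against 18.0%, and GAGAGAG in 0, against 6.75%. TATAAA depended on the window: in 401 bp it was in 52.5% of the 59, against 50.1% of all promoter peaks. At least 1 of the 5 was in 41 windows (69.5%), against 58.2% of all promoter peaks. This difference also depended on the window, with 40.7% against 38.0% in 101 bp and 79.7% against 77.8% in 401 bp.

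By role, the letters in the same windows of 201 bp were found as follows. The windows follow the counted summit, which lay within 100 bp of the gene's own start site in 48 of the 60 genes. In the others the window does not reach that start site. Those of MED25, MED30, Taf6, Polr2A and TfIIB, with summits 337, 215, 257, 179 and 349 bp upstream, lay nearer to a neighbour's start site. Among Mediator genes the DRE letters were at MED7, MED8, MED9, MED17, MED18 and MED28, CAGCTG at MED23, MED25 and MED30, and the motif 1 core at 8 that lack the DRE letters, MED10, MED11, MED15, MED19, MED20, MED22, MED23 and MED24. TATAAA was at 10 of 25 Mediator genes. Among the 14 TAF genes the DRE letters were at Taf3, the motif 1 core at Taf1, Taf5 and Taf6, CAGCTG at Taf6 and at the shared peak of Taf10 and Taf10b, and TATAAA at 8. Among the 13 RNA polymerase II genes Polr2D and Polr2L had both the DRE letters and the motif 1 core, Polr2G had the motif 1 core, Polr2A had CAGCTG, and 8 had TATAAA. None of the 8 TfII genes had the DRE letters, the motif 1 core or TATAAA, and only TfIIEbeta had CAGCTG, although TfIIEalpha and TfIIA-S were among the strongest peaks. These are counts over few genes, and no test was made of them.

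Among the testis paralogs, 1 of 6 had a promoter peak, while all 6 of the genes they resemble had one. These counterparts are Taf4 for nht, Taf5 for can, Taf6 for mia, Taf8 for sa, Taf12 for Taf12L and TfIIA-S for TfIIA-S-2. The paralog with a peak was mia, with a signal of 473 (136, 148 and 232 in the libraries), 35 bp upstream of the downstream one of its 2 start sites. The counterparts had 1086 (Taf4), 751 (Taf5), 1401 (Taf6), 459 (Taf8), 1594 (Taf12) and 2428 (TfIIA-S). Thus mia was below Taf6 and close to Taf8, the weakest counterpart.

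The nearest summit of the reproducible set lay 1584 bp from TfIIA-S-2, 4758 bp from can, 20855 bp from nht, 24734 bp from Taf12L and 26478 bp from sa. In the relaxed lists of single libraries, which include background, the nearest was 954 bp from nht, in replicate 3 and with a signal of 27.9. So none of the 5 had a summit within 500 bp in any list. Of the 6 paralogs, 5 (all but TfIIA-S-2) have no other gene's start site within 1000 bp, and 1 of those 5, mia, had a peak; the share over all such protein-coding genes was the 31.7% given above. With 6 genes these counts carry little precision.

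In 8 lists of related genes, 77 of 78 genes had a promoter peak, against 50.3% of all protein-coding genes. These counts include summits nearest to another gene's start site, as for Ctr9 (Nt5a), Nelf-E (RpL14) and Spt6 (schlank). A count by nearest start site only was not made for these lists. The kinase module of Mediator (kto, skd, CycC and Cdk8) had peaks at 4 of 4 genes, with 1502 at CycC (446, 561 and 514 in the libraries), nearest to UQCR-C1, and 740 at skd, nearest to Pdss2. The TATA-binding protein and its relatives had them at 3 of 3, with 1066 at Tbp and 991 at Trf. TFIIH, which opens DNA and phosphorylates the polymerase, had them at 10 of 10, led by Mat1 at 1990 and Tfb5 at 1470, whose summit was nearest to SelT.

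For pausing and elongation factors the count was 20 of 20, led by Nelf-A at 2231, whose summit was nearest to CG3337, and hyx at 1589. SAGA, a histone acetyltransferase complex, had 13 of 13, led by Nipped-A at 2474 and Spt20 at 1734. Nipped-A had 1075, 1033 and 344 in the libraries and Spt20 501, 604 and 622, so Nipped-A did not lead in replicate 3. Integrator, which cleaves nascent RNA, had 10 of 11, led by IntS3 at 1976 and IntS11 at 1689, and without a peak at IntS2. IntS3 had 855, 763 and 331 in the libraries and IntS11 481, 565 and 621, so IntS3 did not lead in replicate 3. RNA polymerase I subunits had 7 of 7, led by Polr1E at 1686, and RNA polymerase III subunits had 10 of 10. Medians ran from 630 for RNA polymerase III to 1250 for Integrator.

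A Mediator gene outside the symbol rule had no promoter peak. It is ix, which encodes the tail subunit MED29 and was looked up after the other values had been seen. The nearest summit of the reproducible set lay 524 bp from its start site, while the libraries' own lists had summits at 17, 5 and 316 bp.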

How the data were processed

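The deposited files used were the dm6 peak lists: 1 relaxed list per library, a list called on pooled reads and the optimal IDR set, here the reproducible set. Per the file records, peaks were called with a control, not analysed here. For the aligner, the caller and the cutoff of IDR: not given in the sources used here. The deposited score is the peak's signal value, whose scale is not stated; summits were placed by adding the offset to each peak's start. The files hold no read totals, so depth is unknown and no interval was computed.

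Start sites came from the gene models of Ensembl release 115 on the 6 arms, without transposable elements. Of 62 genes with a matching symbol, Taf12L and TfIIA-S-2 were moved to the testis paralogs, and nht, can, mia and sa were added by name. Members, lists and motifs were chosen with earlier results of these data known. With 1 group, counts and medians are given beside those of all protein-coding genes, and no test was made. Named in full are the 2 strongest and 2 weakest genes of each role, the testis paralogs with their counterparts, and the 4 strongest genes with another start site nearer; other members are named beside a count. Of each related list the 2 strongest genes and those without a peak are named, for RNA polymerase I the strongest; single RNA polymerase III genes are not reported here. Positions count from 1. Sequences were read from the RefSeq Release 6 genome. Alternatives were other windows, lists, assignments and matching distances, and leaving out each replicate. Code ran in Python 3.11.15 with numpy 2.4.6 and pandas 2.3.3, and was tested on simulated data.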

Additional observations from a re-analysis of the deposited data

How the results depend on the processing

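Of 99 alternative values of 16 results, 93 stayed close to the reported ones, counts within 1.5 times and medians within the spread between libraries. This tally is lenient: the counts of the 4 groups repeat that of the 60 genes, and a fall from 60 to 50 genes was still called close. All 60 genes had a promoter peak with a start site window of 250 bp, without any 1 replicate, and among each library's own best peaks. The wider window of 1000 bp and the longer pooled list could only add peaks and say nothing of this count. Leaving out a replicate could not lower it either, since all 59 distinct summits were in the best peaks of all 3 libraries. With the 4854 strongest peaks, 0 of 6 testis paralogs had one, since mia drops out. With the nearest start site only, the median summit position was -33 bp over 50 genes, against -42 bp. With 50 bp to each side of the summit, 24 of 59 windows held a motif, against 41 in the wider window; the share was 40.7%, near the 38.0% of all promoter peaks. TATAAA was then in 10 (16.9%, against 11.0% of all promoter peaks) and CAGCTG in 1 (1.69%, against 12.1%). Leaving out a replicate meant keeping the peaks that both other libraries had, as IDR itself was not rerun. No paired analysis was possible because there is a single group. The lack of read totals, of the control and of a stated scale limits statements on strength.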
